A study of Rattus norvegicus with 15 samples.

Results

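The BCL2 family genes described here are 10 genes of mitochondrial cell survival and death, taken by gene name from the 30454 genes of the rat tables: Bcl2, Bcl2l1, Mcl1, Bax, Bak1, Bcl2l11, Bbc3, Pmaip1, Bid and Bad. All 10 names were found once each, and all 10 passed the filter of a mean of at least 1 FPKM (fragments counted, scaled to gene length and to the reads of the library) that left 14416 genes for testing. Proteins of the family decide whether the outer membrane of mitochondria stays closed. The survival proteins BCL2, BCL-XL (from Bcl2l1) and MCL1 hold the effectors BAX and BAK in check, and the BH3-only proteins BIM (Bcl2l11), PUMA (Bbc3), NOXA (Pmaip1), BID and BAD act against the survival proteins or on the effectors; once BAX or BAK opens the membrane, cytochrome c is released and caspases are activated. In bone and marrow, BCL-XL is known as a survival protein of maturing red cells and platelets, MCL1 of neutrophils and blood stem cells, and BCL2 of lymphocytes and of bone-forming cells.

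RNA was measured in femurs of female SD rats, 8 weeks old at the start, in 15 libraries of 5 groups with 3 libraries each. Sham rats kept their ovaries and had only fat removed beside them, and OVX rats were ovariectomised, which takes away the main source of estrogen; both received saline. Rats of the other groups were ovariectomised as well and, after 6 weeks of recovery, were gavaged daily for 8 weeks with 1.6 g/kg of Juglans regia (walnut) extract in J, 2.4 g/kg of Psoralea corylifolia extract in P, or 4.0 g/kg of both combined in PJ. By its title the study is on osteoporosis that follows ovariectomy, and the comparisons ask how ovariectomy and each extract changed the femur. Whether each library is a separate rat is not stated in the labels, so every p-value refers to library-to-library spread only, which may be technical. The sources used here do not say which piece of the femur was taken or whether marrow was flushed out.

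Library totals recovered from the FPKM steps ran from 34400000 reads (Sham 3) to 61000000 reads (PJ 2), rounded, and the 10 genes were covered by 324 (Bbc3 in P 1) to 14649 reads (Mcl1 in PJ 2), against a floor of 3 reads. Bone markers were present in every library, with Ctsk of osteoclasts at 29.0 to 1929 FPKM and Spp1 of bone matrix at 48.1 to 3559 FPKM. Markers of some other cell types differed widely between the groups. Summed over 10 erythroid markers, the level was 359 to 2228 FPKM in Sham and 30680 to 41272 FPKM in OVX, and over 8 cartilage markers it was 2507 to 5071 FPKM in Sham and 1.81 to 2.92 FPKM in OVX. In bulk RNA, fewer cells of a type and less RNA per cell cannot be told apart. Some libraries stood apart from their group. Summed over 8 osteoblast markers, Sham 3 had 5866 FPKM, against 811 and 479 FPKM in Sham 1 and Sham 2. Over 5 osteocyte markers it had 884 FPKM, against 35.3 and 15.7 FPKM. Over 7 osteoclast markers it had 2241 FPKM, against 87.1 and 78.5 FPKM. Sham thus joins libraries with unlike bone cell marker levels in every comparison against Sham. The fit pools the spread of all 15 libraries, so Sham also enters the p-values of the other comparisons. P 2 had high muscle and cartilage markers with 35.9% of its FPKM on mitochondrial genes, and PJ 3 had the highest erythroid and neutrophil markers in PJ.

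Across the 5 groups, Bcl2l1, Bid, Bcl2, Pmaip1 and Bad changed, and Bcl2l11, Bak1, Bbc3, Bax and Mcl1 did not pass the F test of limma (adjusted p under 0.05). That is 5 of 10 genes, the same as the 50.0% of all tested genes that passed. Bcl2l1 had the smallest p of the 10, ranking 485 of 14416 (adjusted p = 1.63e-05), followed by Bid (adjusted p = 0.0013) and Bcl2 (adjusted p = 0.00165). Pmaip1 (0.0165) and Bad (0.0297) passed by less, and Mcl1 was at an adjusted p of 0.801. With FPKM, which is per length, as the scale, the mean level over the 15 libraries was highest for Mcl1 at 101 FPKM, followed by Bid (28.7), Bax (20.9), Bak1 (17.6) and Bcl2l1 (15.1). The other 5 lay close together, from Bbc3 (7.55) through Bad (6.21), Pmaip1 (5.96) and Bcl2l11 (5.87) to Bcl2 (5.17), and the ranges of these 5 over the libraries overlapped. Bcl2 varied the most for its level, by 6.41-fold between its lowest and highest library, and Bcl2l11 the least, by 1.77-fold.

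**Figure D1:**
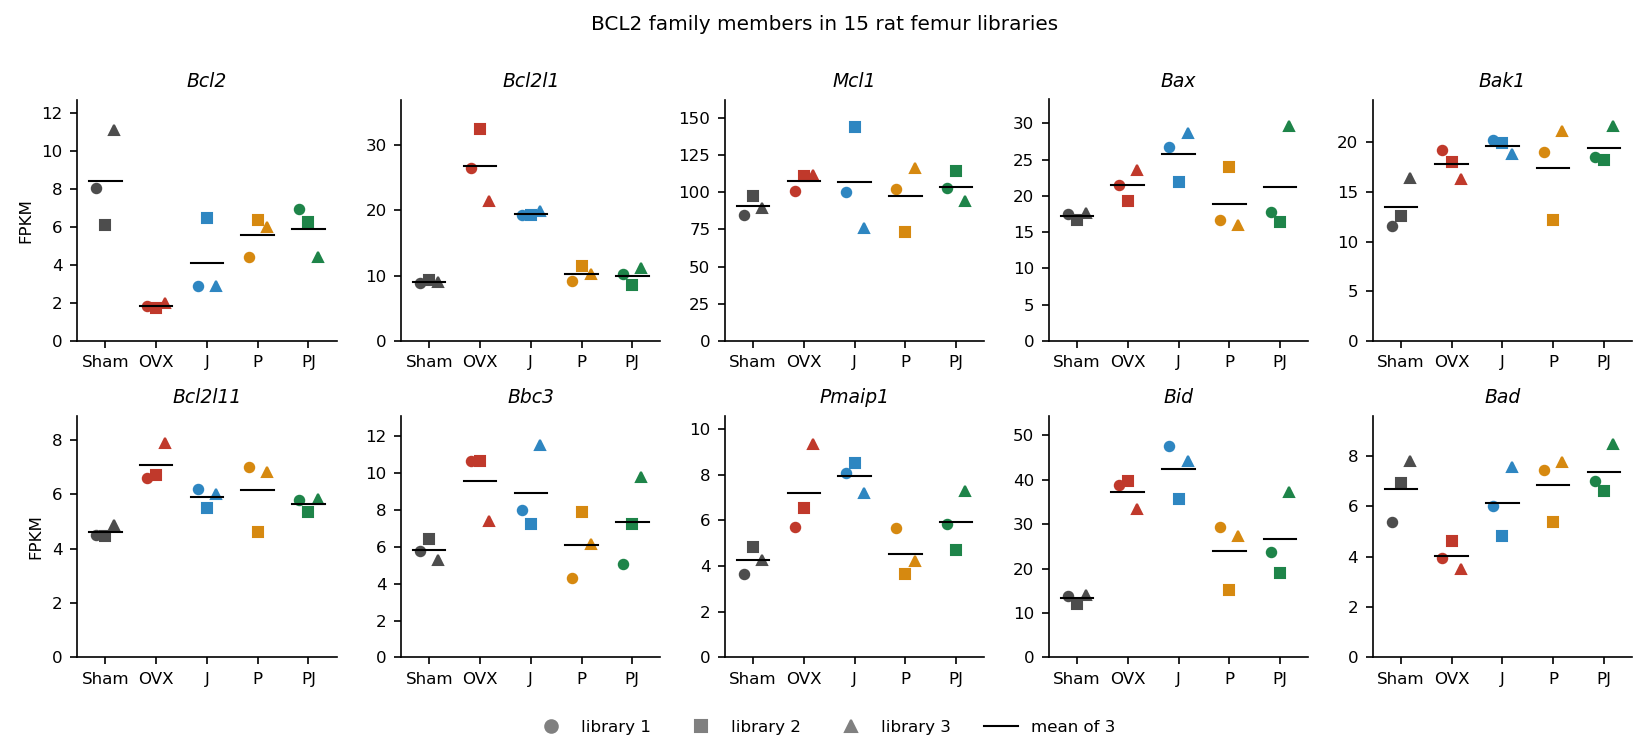
FPKM of the 10 BCL2 family genes in each library (circle, square and triangle are libraries 1, 2 and 3; the line is the mean of 3; each panel has its own axis from 0). The 3 OVX libraries lie below all others for Bcl2, at 1.73 to 1.99, and above all others for Bcl2l1, at 21.4 to 32.4.

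The survival genes Bcl2 and Bcl2l1 moved in opposite directions between the groups, and for this reason the start-site windows of both are shown, with that of Bid, the BH3-only gene with the largest rise in OVX. RefSeq (build GRCr8, not the build of the expression tables) gives windows from 250 bases before to 50 bases after a gene's start for 8 of the 10 genes, all but Bax and Bbc3, and 4 windows for Bcl2l1, of which the one with the most matches (5) is printed. The other Bcl2l1 windows held 4, 1 and 0 matches, so the printed one does not stand for all starts of the gene. Capitals mark matches, on either strand, to 4 kinds of motif: GATA with A or T before it and A or G after it, the GATA factor motif of blood cell genes; TTCNNNGAA, the STAT motif; GGGCGG, the GC box; and CCAAT, the CCAAT box. No matches overlapped each other in these windows.
Bcl2, chr13:23366851-23367150, minus strand: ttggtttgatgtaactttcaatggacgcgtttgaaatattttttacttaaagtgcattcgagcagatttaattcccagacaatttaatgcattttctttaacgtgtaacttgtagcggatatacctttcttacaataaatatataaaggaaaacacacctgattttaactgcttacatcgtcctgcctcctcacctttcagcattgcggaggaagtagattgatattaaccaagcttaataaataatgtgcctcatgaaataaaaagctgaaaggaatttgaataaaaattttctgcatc
Bcl2l1, chr3:161763336-161763635, minus strand: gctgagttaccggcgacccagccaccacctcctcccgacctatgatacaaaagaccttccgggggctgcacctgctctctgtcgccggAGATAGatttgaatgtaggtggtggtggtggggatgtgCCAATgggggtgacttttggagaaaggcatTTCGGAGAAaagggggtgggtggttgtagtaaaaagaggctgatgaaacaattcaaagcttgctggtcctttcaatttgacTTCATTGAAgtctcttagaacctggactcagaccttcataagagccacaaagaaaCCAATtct
Bid, chr4:155808270-155808569, minus strand: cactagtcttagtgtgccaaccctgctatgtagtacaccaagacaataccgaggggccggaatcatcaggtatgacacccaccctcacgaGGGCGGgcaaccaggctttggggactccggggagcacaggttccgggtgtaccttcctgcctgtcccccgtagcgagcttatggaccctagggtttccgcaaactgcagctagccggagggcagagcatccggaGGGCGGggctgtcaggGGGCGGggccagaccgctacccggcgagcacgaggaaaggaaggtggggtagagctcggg
The Bcl2 window held none of the motifs and had 32.7% G and C, against a median of 51.7% over 33469 windows. The Bcl2l1 window held 1 GATA, 2 STAT and 2 CCAAT matches, and that of Bid held 3 GC boxes. Among all windows, 30.3% held a GATA match, 8.9% a STAT match, 33.1% a GC box and 37.5% a CCAAT box. The printed Bcl2l1 window was picked for its matches, so it cannot be set against these shares. It overlaps the Bcl2l1 window with 4 matches, and both hold the same 2 STAT matches. A match is a string of letters and not a shown binding site, and the letters missing from a window say nothing about a factor.

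Bcl2, the founding survival gene of the family, had 8.05, 6.12 and 11.1 FPKM in Sham and 1.83, 1.73 and 1.99 FPKM in OVX. It had 2.87, 6.49 and 2.91 FPKM in J, 4.43, 6.39 and 5.97 FPKM in P, and 6.94, 6.28 and 4.42 FPKM in PJ. Every OVX library was below every library of the other 4 groups, J 2 stood far above J 1 and J 3, and P and PJ reached the lower end of Sham. Bcl2 fell in OVX against Sham by 1.69 on the log2(FPKM + 1) scale, on which all fold changes are given (SE 0.27, adjusted p = 0.00016, limma). It rose in P against OVX by 1.20 ± 0.27 (SE, adjusted p = 0.00364) and in PJ against OVX by 1.25 ± 0.27 (adjusted p = 0.00236). In J it was higher than in OVX by 0.77 ± 0.27, with an adjusted p of 0.1, which did not pass, and without J 2 by 0.45 (adjusted p = 0.255). The Bcl2 differences of OVX, P and PJ passed in each of 18 alternatives, among them those without any single library.

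Bcl2l1, which makes BCL-XL, had 8.87, 9.28 and 9.10 FPKM in Sham and 26.4, 32.4 and 21.4 FPKM in OVX. It had 19.3, 19.4 and 19.9 FPKM in J, 9.19, 11.5 and 10.3 FPKM in P, and 10.3, 8.54 and 11.2 FPKM in PJ. The groups formed 3 levels that did not overlap: OVX on top, J below it, and Sham, P and PJ together at the bottom. Bcl2l1 rose in OVX against Sham by 1.44 ± 0.15 (SE, adjusted p = 5.13e-06), with a 95% interval of 1.12 to 1.76. Against OVX, it fell by 1.28 in P (SE 0.15, adjusted p = 8.61e-05) and by 1.32 in PJ (SE 0.15, adjusted p = 3.39e-05). In J the difference from OVX was -0.42 ± 0.15 and did not pass (adjusted p = 0.102), and without OVX 3, the lowest OVX library, it was -0.56 and passed (adjusted p = 0.042). Without OVX 2, the highest, it was -0.28 (adjusted p = 0.347).

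Mcl1, a short-lived survival protein gene, was the highest of the 10 in every library, at 84.5 to 97.5 FPKM in Sham and 101 to 111 FPKM in OVX. The spread was widest in J, at 100, 144 and 75.9 FPKM, and reached from 73.4 to 116 FPKM in P and from 94.1 to 114 FPKM in PJ. Mcl1 passed in none of the 10 comparisons between groups. Its largest difference was OVX against Sham at 0.25 ± 0.21, with a 95% interval of -0.21 to 0.71, which bounds the difference and does not show that the levels were alike. All 3 OVX libraries were above all 3 of Sham.

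The effectors Bax and Bak1, whose proteins open the mitochondrial outer membrane, differed less between the groups than Bcl2 or Bcl2l1. Bax had 17.6, 16.7 and 17.6 FPKM in Sham, 21.5, 19.3 and 23.6 FPKM in OVX and 26.7, 21.9 and 28.6 FPKM in J. It had 16.7, 23.9 and 16.0 FPKM in P and 17.8, 16.4 and 29.6 FPKM in PJ, so that P 2 and PJ 3 lay above the other libraries of their groups, P 2 within the range of J and PJ 3 above it. The Sham libraries were all below those of OVX and J. Bax rose in J against Sham by 0.54 ± 0.21 (SE, adjusted p = 0.0494), and this call was lost in 10 of 18 alternatives, in 5 of them by leaving out J 1, J 3 or any 1 Sham library (adjusted p = 0.0847 to 0.145). Bak1 had 11.5, 12.6 and 16.4 FPKM in Sham, 19.3, 18.0 and 16.3 FPKM in OVX and 20.3, 19.9 and 18.8 FPKM in J. In P it had 19.0, 12.2 and 21.1 FPKM and in PJ 18.5, 18.2 and 21.6 FPKM. Sham 3 was the highest of Sham and P 2 the lowest of P. Bak1 rose in J against Sham by 0.52 ± 0.18 (adjusted p = 0.0326), but the adjusted p was 0.0577 to 0.122 without Sham 1, Sham 2, J 1, J 2 or J 3. With values rescaled to TPM, Bak1 was higher there by 0.38 and did not pass (adjusted p = 0.225). In OVX against Sham it was higher by 0.39 ± 0.18 (adjusted p = 0.0889), and without Sham 3 by 0.52 (adjusted p = 0.0369).

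Among the BH3-only genes, Bid had both the highest level and the largest change. BID links death receptors to mitochondria once caspase-8 cuts it. Bid had 13.8, 12.0 and 14.0 FPKM in Sham, 38.8, 39.6 and 33.5 FPKM in OVX and 47.6, 35.6 and 44.2 FPKM in J. It had 29.3, 15.2 and 27.2 FPKM in P and 23.7, 18.9 and 37.2 FPKM in PJ. All 12 libraries of ovariectomised rats lay above Sham, with P 2 and PJ 2 nearest to it and PJ 3 within the range of OVX and J. Bid rose in OVX against Sham by 1.42 ± 0.25 (SE, adjusted p = 0.00041), in J against Sham by 1.60 ± 0.25 (adjusted p = 0.000364) and in PJ against Sham by 0.90 ± 0.25 (adjusted p = 0.0407). Without Sham 1, Sham 2, Sham 3, PJ 1 or PJ 3 in turn, the adjusted p of PJ against Sham was 0.051 to 0.162. Against OVX, the Bid difference was -0.67 ± 0.25 in P (adjusted p = 0.0525) and -0.52 ± 0.25 in PJ (adjusted p = 0.113). In P it was -0.84 and passed without P 1 (adjusted p = 0.0356), and it was -0.39 without P 2 (adjusted p = 0.197). In PJ it was -0.79 and passed without PJ 3 (adjusted p = 0.0189), and it was -0.32 without PJ 2 (adjusted p = 0.373).

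Bcl2l11, whose product BIM binds all survival proteins of the family, had 4.49, 4.47 and 4.87 FPKM in Sham and 6.58, 6.71 and 7.90 FPKM in OVX. It ranged over 5.49 to 6.19 FPKM in J, 4.62 to 7.01 FPKM in P, where P 2 alone was near Sham, and 5.34 to 5.82 FPKM in PJ. OVX, J and PJ lay above Sham without overlap. Bcl2l11 rose in OVX against Sham by 0.52 ± 0.14 (SE, adjusted p = 0.00744) and passed in no other comparison. With values rescaled to TPM this rise was 0.47 and did not pass (adjusted p = 0.0698). In P against Sham it was higher by 0.33 ± 0.14 (adjusted p = 0.174), and without P 2 by 0.50 (adjusted p = 0.0163).

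Pmaip1 and Bbc3, both known as p53 target genes, were low in Sham. Pmaip1 had 3.66, 4.82 and 4.26 FPKM in Sham, 5.70, 6.54 and 9.32 FPKM in OVX and 8.08, 8.49 and 7.21 FPKM in J. It had 5.66, 3.66 and 4.22 FPKM in P and 5.82, 4.69 and 7.28 FPKM in PJ. OVX 3 was the highest library of all, and P 2 and P 3 lay close to or within the range of Sham. Pmaip1 rose in OVX against Sham by 0.62 ± 0.20 (SE, adjusted p = 0.0166) and in J against Sham by 0.77 ± 0.20 (adjusted p = 0.00677), and fell in P against OVX by 0.56 (SE 0.20, adjusted p = 0.0374). The rise in OVX was lost without Sham 1 (0.54, adjusted p = 0.0637) or OVX 3 (0.44, adjusted p = 0.0815), and the fall in P without OVX 2, OVX 3, P 2 or P 3 (adjusted p = 0.0634 to 0.156). With TPM the rise in OVX was 0.58 and did not pass (adjusted p = 0.0548). The fall in P was lost in 9 of 18 alternatives. Among these were TPM (0.0665), no filter (0.0609), array weights (0.0517) and only the groups compared (0.101). Bbc3 had 5.78, 6.42 and 5.29 FPKM in Sham, 10.7, 10.6 and 7.39 FPKM in OVX and 7.96, 7.25 and 11.5 FPKM in J. It ranged from 4.31 to 7.86 FPKM in P and from 5.04 to 9.79 FPKM in PJ, and passed in none of the 10 comparisons. OVX and J lay above Sham without overlap, and OVX against Sham was 0.62 ± 0.25 (adjusted p = 0.0504). Without OVX 3 it was 0.77 (adjusted p = 0.0314), which then passed. The difference of P from OVX was -0.59 ± 0.25 (adjusted p = 0.0774), and without P 2 it was -0.76 (adjusted p = 0.0361).

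Bad, whose product binds BCL2 and BCL-XL unless growth factor signals phosphorylate it, was the only BH3-only gene of the 5 that fell in OVX against Sham. Bad had 5.38, 6.91 and 7.81 FPKM in Sham and 3.94, 4.63 and 3.50 FPKM in OVX. It had 6.00, 4.82 and 7.54 FPKM in J, 7.42, 5.39 and 7.76 FPKM in P, and 7.01, 6.61 and 8.46 FPKM in PJ. Every OVX library was below every other library. Bad fell in OVX against Sham by 0.61 (SE 0.19, adjusted p = 0.0139) and rose in P against OVX by 0.64 ± 0.19 (adjusted p = 0.0163) and in PJ against OVX by 0.74 ± 0.19 (adjusted p = 0.00669). The fall in OVX was lost without Sham 3 (adjusted p = 0.0581) or OVX 3 (adjusted p = 0.0536), and the rise in P without OVX 3, P 1 or P 3 (adjusted p = 0.0569 to 0.0632).

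Taken by comparison, ovariectomy was the contrast with the most called members together with J against Sham. In OVX against Sham, 4 members rose (Bcl2l1, Bid, Pmaip1, Bcl2l11) and 2 fell (Bcl2, Bad), where 54.2% of all tested genes were called, 25.3% higher and 28.9% lower, so 6 of 10 is near the background. The 2 groups did not overlap for 9 of the 10 genes, all but Bak1, against 66.0% of all genes. The median log2 difference of the members was 0.45, beside -0.04 for all tested genes. Of the survival genes 1 rose, 1 fell and 1 did not pass, of the effectors neither passed, and of the BH3-only genes 3 rose, 1 fell and 1 did not pass.

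Against OVX, the number of members called differed between the extracts, each time near the share of all tested genes called. These comparisons share the OVX libraries. In J none of the 10 was called by limma, where 6.06% of all genes were called, 3.27% higher and 2.79% lower; at an unadjusted p under 0.05 there were 3 (Bcl2, Bcl2l1 and Bad), and voom, the count-based fit of limma on the recovered reads, also called 0. In P, 2 members rose (Bcl2, Bad) and 2 fell (Bcl2l1, Pmaip1), beside 39.2% of all genes, 24.2% higher and 15.0% lower. In PJ, 2 rose (Bcl2, Bad) and 1 fell (Bcl2l1), beside 44.4% of all genes, 29.8% higher and 14.6% lower. With median-ratio scaling, the split of all calls in J against OVX turned from 471 higher and 402 lower to 438 and 806, that in P from 3486 and 2160 to 2943 and 3105, and that in PJ from 4298 and 2103 to 3161 and 3307. Groups did not overlap for 4 members in J (37.6% of all genes), 5 in P (50.9%) and 4 in PJ (58.5%). The median member difference was 0.14 in J, -0.19 in P and -0.15 in PJ, beside 0.11, 0.12 and 0.22 for all genes. Without OVX 3 or without P 3, 2 members were called in P in place of 4. With median-ratio scaling, 2 members rose and 3 fell in PJ, since Bcl2l11 (-0.49, adjusted p = 0.00268) and Bid (-0.76, adjusted p = 0.0148) then passed.

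**Figure D2:**
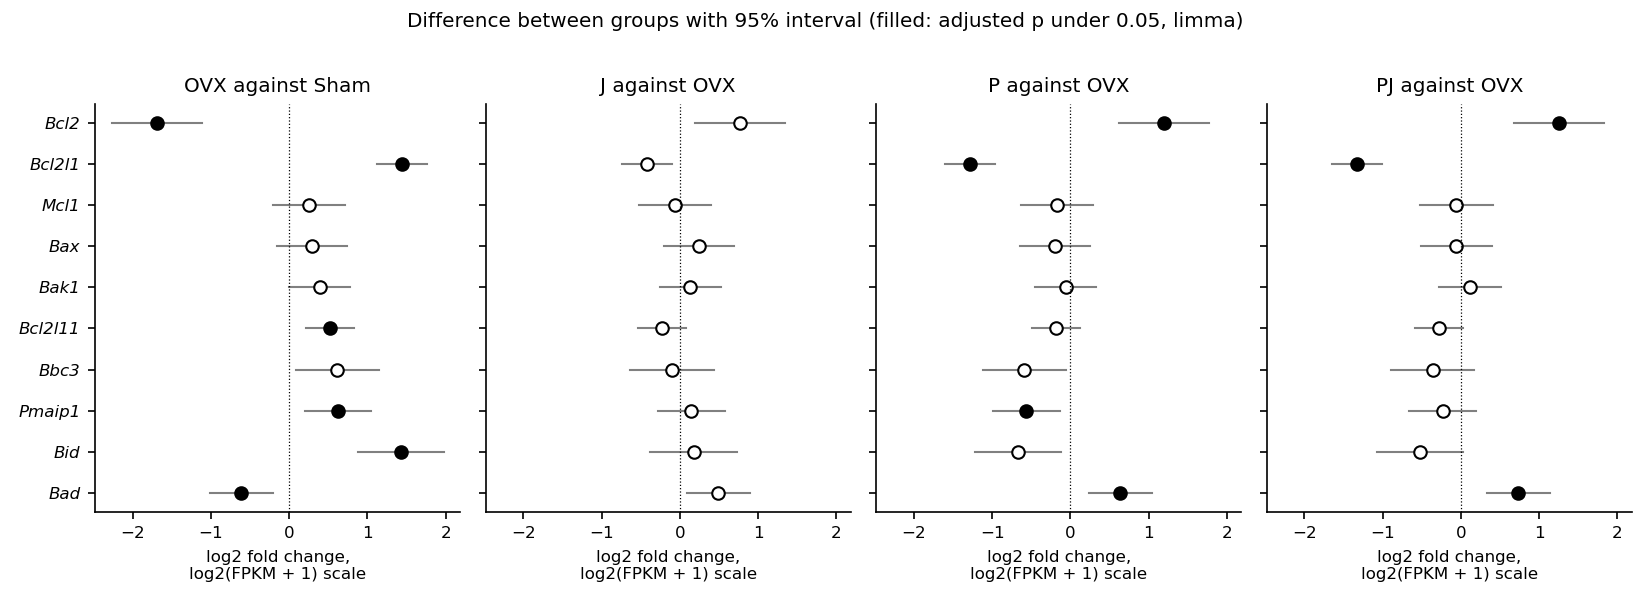
Log2 fold change of each member with its 95% interval, on the log2(FPKM + 1) scale, for OVX against Sham and each extract against OVX; filled points passed at an adjusted p under 0.05 in limma. Bcl2 and Bad lie left of 0 in OVX and right of 0 under every extract, and Bcl2l1 lies on the opposite sides, with open points in J.

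The treated groups were also set against Sham, and these comparisons share the Sham libraries. In J, 5 members were higher than in Sham (Bid, Bcl2l1, Pmaip1, Bax and Bak1) and Bcl2 was lower by 0.93 (SE 0.27, adjusted p = 0.0131), where 43.9% of all genes were called, 23.0% higher and 20.9% lower (3316 and 3012 genes, and 2256 and 3313 with TPM). Bcl2l1 was higher by 1.02 ± 0.15 (adjusted p = 0.00019). The groups did not overlap for 7 members, against 54.5% of all genes. Without J 1 or without J 3, 3 members were called in place of 6. The Bcl2 difference was then -0.76 and -0.77 (adjusted p = 0.0598 and 0.0573), and it was -0.73 without Sham 3 (adjusted p = 0.0571). In P against Sham limma called none of the members, beside 7.80% of all genes (5.95% higher, 1.85% lower), with 2 (Bid and Bcl2l11) at an unadjusted p under 0.05 and 0 by voom, and the groups were apart for 1 member, Bid (25.9% of all genes). Without P 2, the library with high muscle and cartilage markers, 3 members were higher in P than in Sham: Bid by 1.04 in place of 0.75 (adjusted p = 0.0106), Bak1 by 0.55 in place of 0.33 (adjusted p = 0.0267) and Bcl2l11 by 0.50. Without P 3 the Bak1 difference was 0.18. In PJ against Sham, Bid was the 1 member called, beside 11.2% of all genes, 7.72% higher and 3.48% lower (1113 and 502 genes, and 821 and 831 with median-ratio scaling). Groups were apart there for 3 members (Bid, Bak1 and Bcl2l11), against 37.3% of all genes. Of the 2 survival genes that changed with ovariectomy, Bcl2l1 differed from Sham by 0.16 (95% interval -0.16 to 0.48) in P and 0.12 (-0.20 to 0.44) in PJ, and Bcl2 by -0.49 (-1.07 to 0.08) and -0.44 (-1.02 to 0.14). Without Sham 3, the highest Bcl2 library, the Bcl2 differences were -0.30 and -0.24, and without PJ 3 that of PJ was -0.28. These intervals bound the differences and do not show that the levels were alike.

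The extracts were compared with each other at the doses given above, which differ between them, so extract and dose cannot be told apart. Bcl2l1 was lower than in J by 0.86 in P (log2 difference -0.86 ± 0.15, adjusted p = 0.0364) and by 0.90 in PJ (-0.90 ± 0.15, adjusted p = 0.00464). Pmaip1 was lower in P than in J by 0.71 (-0.71 ± 0.20, adjusted p = 0.0485). These were the members called in P against J, 2 beside 7.42% of all genes (4.37% higher, 3.05% lower), and in PJ against J, 1 beside 14.3% (8.38% higher, 5.88% lower). Groups were apart for 3 members in P against J (29.6% of all genes) and for 1 in PJ against J (33.0%), and for 0 in PJ against P (4.02%). In P against J the Bcl2l1 call was lost without J 1, J 3, P 1 or P 3 (adjusted p = 0.0666 to 0.109), and Pmaip1 lost its call without any 1 of the 6 libraries (adjusted p = 0.0708 to 0.131). In PJ against J, Bid was at -0.70 (adjusted p = 0.0811), and at -0.96 without PJ 3 (adjusted p = 0.013). Bax was at -0.30 (adjusted p = 0.326), and at -0.56 without PJ 3 (adjusted p = 0.0326). Bcl2 was at 0.49 (adjusted p = 0.223), and at 0.80 without J 2 (adjusted p = 0.0487). With median-ratio scaling, the split of all calls turned from 630 higher and 439 lower to 554 and 779 in P against J, and from 1208 and 848 to 719 and 1372 in PJ against J. With TPM it was 260 and 69, and 1705 and 566. In PJ against P limma called none of the members and 0.00% of all genes; no member and 296 genes had an unadjusted p under 0.05, and voom called 0 of each. The Bcl2l1 difference there was -0.04, with a 95% interval of -0.36 to 0.28, and that of Bcl2 was 0.05 (-0.52 to 0.63).

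The makeup of the family within each library can be read from ratios of FPKM, which are per length, and these are given as a description with no test. The ratio of Bcl2l1 to Bcl2 was 1.10, 1.52 and 0.82 in Sham and 14.4, 18.7 and 10.8 in OVX. It was 6.73, 2.98 and 6.81 in J, 2.07, 1.80 and 1.72 in P, and 1.48, 1.36 and 2.53 in PJ. The order of the groups was OVX, J, then P and PJ together, then Sham, with no overlap of OVX with J, of J with P or PJ, or of P with Sham; the lowest PJ libraries overlapped Sham. The ratio of Bax to Bcl2 was 1.59 to 2.72 in Sham, 11.2 to 11.9 in OVX, 3.37 to 9.83 in J, 2.69 to 3.78 in P and 2.56 to 6.69 in PJ. The ratio was highest in the OVX libraries, where Bcl2 was lowest, and J 2 stood apart from J 1 and J 3.

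Mcl1 held most of the summed FPKM of the 3 survival genes in every library, from 76.4% to 88.5%. The share of Bcl2l1 in that sum was 8.22% to 8.74% in Sham, 15.9% to 22.4% in OVX, 11.4% to 20.1% in J, 7.75% to 12.6% in P and 6.63% to 10.2% in PJ. Bcl2 made up 5.42% to 10.1% in Sham and 1.19% to 1.47% in OVX. Bid held 34.6% to 41.7% of the summed FPKM of the 5 BH3-only genes in Sham, 54.4% to 59.1% in OVX and 57.7% to 62.8% in J. In P and PJ its share was 41.3% to 54.6% and 44.2% to 54.3%, with the lowest share of all extract libraries in P 2.

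**Figure D3:**
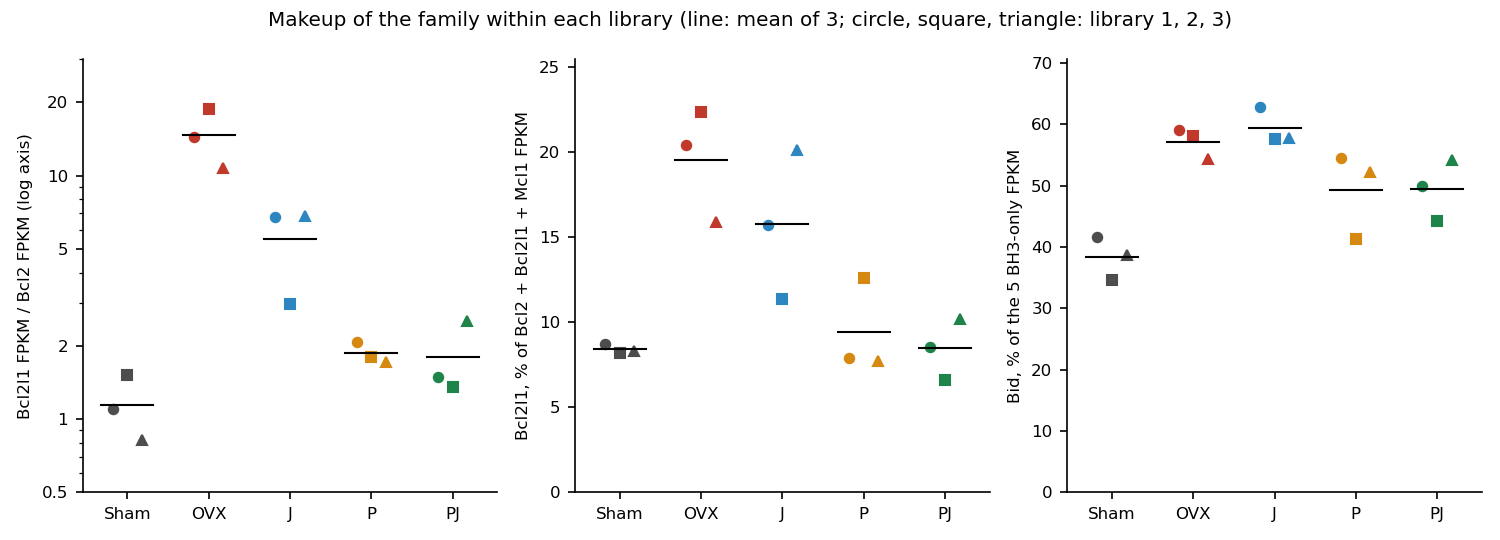
Ratio of Bcl2l1 to Bcl2 FPKM on a log axis, share of Bcl2l1 in the summed FPKM of Bcl2, Bcl2l1 and Mcl1, and share of Bid in the summed FPKM of the 5 BH3-only genes, by library (line, mean of 3). The ratio lies at 10.8 to 18.7 in OVX, above every other library, and at 0.82 to 1.52 in Sham.

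Marker genes of several cell types moved between the groups together with the members. All 10 erythroid markers were called higher in OVX than in Sham and lower in P and in PJ than in OVX. In J against OVX 0 of 10 were called, beside 6.06% of all genes. Their summed level was 17257 to 20929 FPKM in J, 3244 to 9198 FPKM in P and 1282 to 5807 FPKM in PJ, and no erythroid marker was at 0 in any library. Hba-a1, an alpha globin and the most abundant of them, had 24889 to 33262 FPKM in OVX and 307 to 1946 FPKM in Sham. Bcl2l1 was highest in the 3 libraries with the highest erythroid sums and intermediate in the 3 J libraries, which came next. In the other 9 libraries Bcl2l1 stayed within 8.54 and 11.5 FPKM, while their erythroid sums ran from 359 to 9198 FPKM. Megakaryocyte and platelet markers were also highest in OVX, with sums over 8 genes of 46.0 to 87.1 FPKM in Sham, 1756 to 2849 FPKM in OVX, 739 to 842 FPKM in J, 238 to 550 FPKM in P and 141 to 462 FPKM in PJ. All 7 tested were called higher in OVX than in Sham and lower in P and in PJ than in OVX, with 2 lower in J; Gp1bb was at 0 in all 15 libraries and Gp6 in Sham 1.

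Neutrophil markers had summed levels of 262 to 623 FPKM in Sham, 20066 to 23413 FPKM in OVX, 9235 to 22933 FPKM in J, 3561 to 6820 FPKM in P and 1786 to 9008 FPKM in PJ. All 9 tested of the 10 were called higher in OVX than in Sham, and Ltf was at 0 in P 2. S100a8, the most abundant, had 120 to 265 FPKM in Sham and 9564 to 11206 FPKM in OVX. Bid was lowest in the 3 Sham libraries and in P 2, and highest in J 1, where the neutrophil sum was below that of OVX. Within PJ, the library with the most neutrophil marker RNA, PJ 3, also had the most Bid. Endothelial markers went the other way, with sums of 365 to 604 FPKM in Sham, 66.3 to 94.4 FPKM in OVX, 136 to 171 FPKM in J, 245 to 295 FPKM in P and 201 to 391 FPKM in PJ. All 7 were called lower in OVX than in Sham and none was at 0. Bcl2 was lowest in the 3 OVX libraries and next lowest in J 1 and J 3, but J 2 had 6.49 FPKM of Bcl2 at an endothelial sum of 171 FPKM. Cartilage markers were also lower in OVX, 6 of 6 tested, with Acan, Col9a1 and Ucma at 0 in 1 or more OVX libraries. Fibroblast and matrix markers, summed over 7 genes, had 4785 to 10079 FPKM in Sham and 85.8 to 154 FPKM in OVX, with 6 of 7 called lower in OVX and 7 of 7 called higher in P and in PJ than in OVX. B cell markers, summed over 8 genes, had 56.2 to 207 FPKM in Sham and 434 to 645 FPKM in OVX, with 7 of 8 called higher in OVX and 0 of 8 called in J, P or PJ against OVX. Of all genes, 6.06% were called in J, 39.2% in P and 44.4% in PJ against OVX. Other pairs of member and marker list were as close, by Pearson's r of log2 levels over the 15 libraries, given with no test. For Bcl2l1, r was 0.89 with erythroid and -0.93 with endothelial markers. For Bid it was 0.93 with neutrophil and -0.91 with fibroblast and matrix markers. For Bcl2 it was 0.88 with endothelial and 0.87 with cartilage markers, and for Bak1 0.93 with B cell markers. The part of cell makeup in the differences of Bcl2, Bcl2l1, Bid and the other members was not tested.

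**Figure D4:**
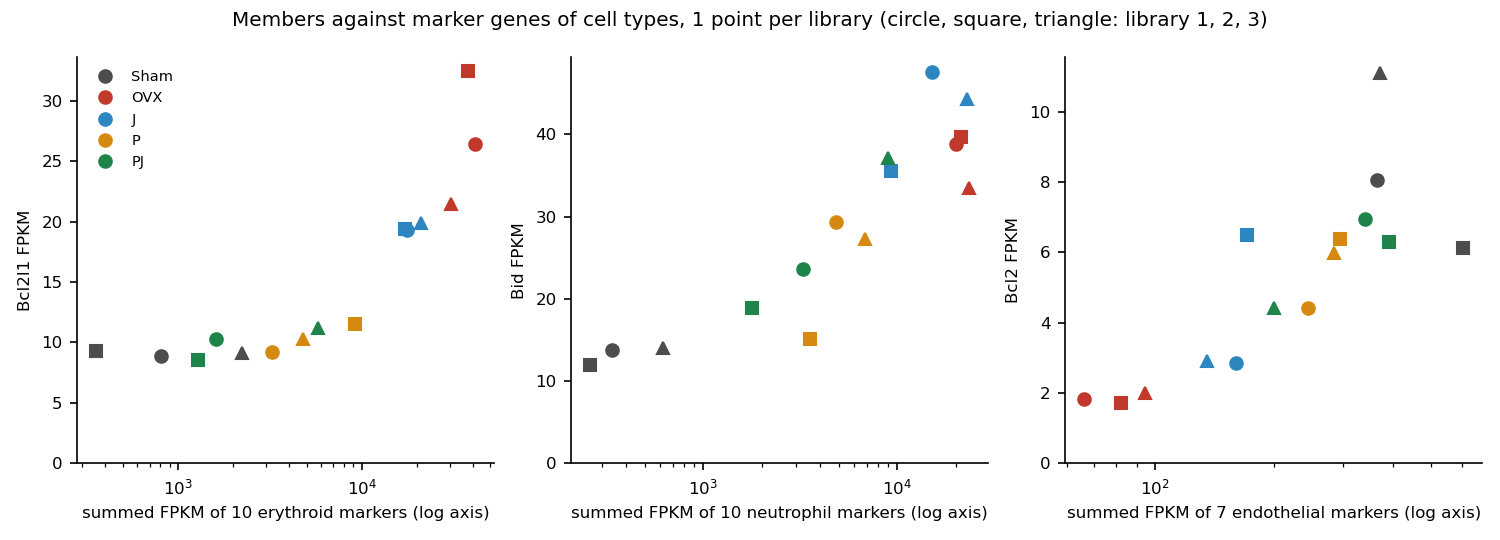
Bcl2l1, Bid and Bcl2 FPKM against the summed FPKM of 10 erythroid, 10 neutrophil and 7 endothelial markers (log axes), 1 point per library. The OVX libraries have the highest erythroid sums and Bcl2l1 levels and the lowest endothelial sums and Bcl2 levels.

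Of 13 other genes of the family listed for comparison, 12 were in the files and 10 were tested, and 6 of these passed the F test over the 5 groups, where 50.0% of all tested genes passed. Their median log2 difference in OVX against Sham was 0.05, beside -0.04 for all tested genes. In OVX against Sham, Bnip3l, Bcl2l13 and Bcl2l12 rose and Bcl2l2, Bok and Bnip3 fell, so 6 of 10 were called beside 54.2% of all genes. Bnip3l, which makes the mitophagy receptor that clears mitochondria from maturing red cells, had 33.1 to 38.1 FPKM in Sham and 99.4 to 145 FPKM in OVX (log2 difference 1.77 ± 0.16, SE, adjusted p = 2.18e-06). Bcl2l13, also a mitophagy receptor gene, had 8.24 to 10.5 FPKM in Sham and 28.2 to 33.8 FPKM in OVX (1.63 ± 0.16, adjusted p = 4.16e-06). Bcl2l2, which makes the survival protein BCL-W, had 15.3 to 19.0 FPKM in Sham and 5.20 to 7.19 FPKM in OVX (-1.38 ± 0.15, adjusted p = 1.05e-05). In all 3 the OVX and Sham libraries were far apart. Bok, an effector-like gene, fell by 2.24 (SE 0.38) and Bnip3, a mitophagy receptor gene, fell by 2.96 (SE 0.63). Bnip3 had 53.7 to 74.1 FPKM in Sham and 2.11, 4.36 and 29.5 FPKM in OVX, where OVX 3 stood apart.

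In J against OVX, Bcl2l13 (-0.91 ± 0.16, adjusted p = 0.0126) and Bnip3l (-0.62 ± 0.16, adjusted p = 0.0408) fell and none rose. Bcl2l13 lost this call without OVX 1, OVX 2 or J 3 (adjusted p = 0.0557 to 0.068), and Bnip3l without OVX 1, OVX 2, J 1 or J 3 (0.122 to 0.164) and with the replicate block (0.055). Bnip3l also lost it with no filter, without mitochondrial and globin genes, with only the groups compared and by voom (0.0524 to 0.062). In P against OVX, Bcl2l2 (1.28 ± 0.15), Bok (1.21 ± 0.38) and Bnip3 (2.21 ± 0.63) rose and the same pair, Bcl2l13 (-1.24 ± 0.16) and Bnip3l (-1.31 ± 0.16), fell. Bok had 12.4 FPKM in P 2, against 2.62 and 4.03 FPKM in P 1 and P 3, and without P 2 its difference was 0.66 and did not pass (adjusted p = 0.0633). The Bok call was also lost without any 1 OVX library (0.0522 to 0.0712), and that of Bnip3 without OVX 1 (1.53, adjusted p = 0.0681) or OVX 2 (1.92, adjusted p = 0.0597). In PJ against OVX, Bcl2l2 (1.28 ± 0.15), Bnip3 (2.60 ± 0.63) and the BH3-only gene Bmf (1.01 ± 0.29, adjusted p = 0.012) rose, and Bcl2l13 (-1.29 ± 0.16) and Bnip3l (-1.44 ± 0.16) fell. Bmf is named after its values were seen, and lost its call without OVX 1 (adjusted p = 0.0515).

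**Figure D5:**
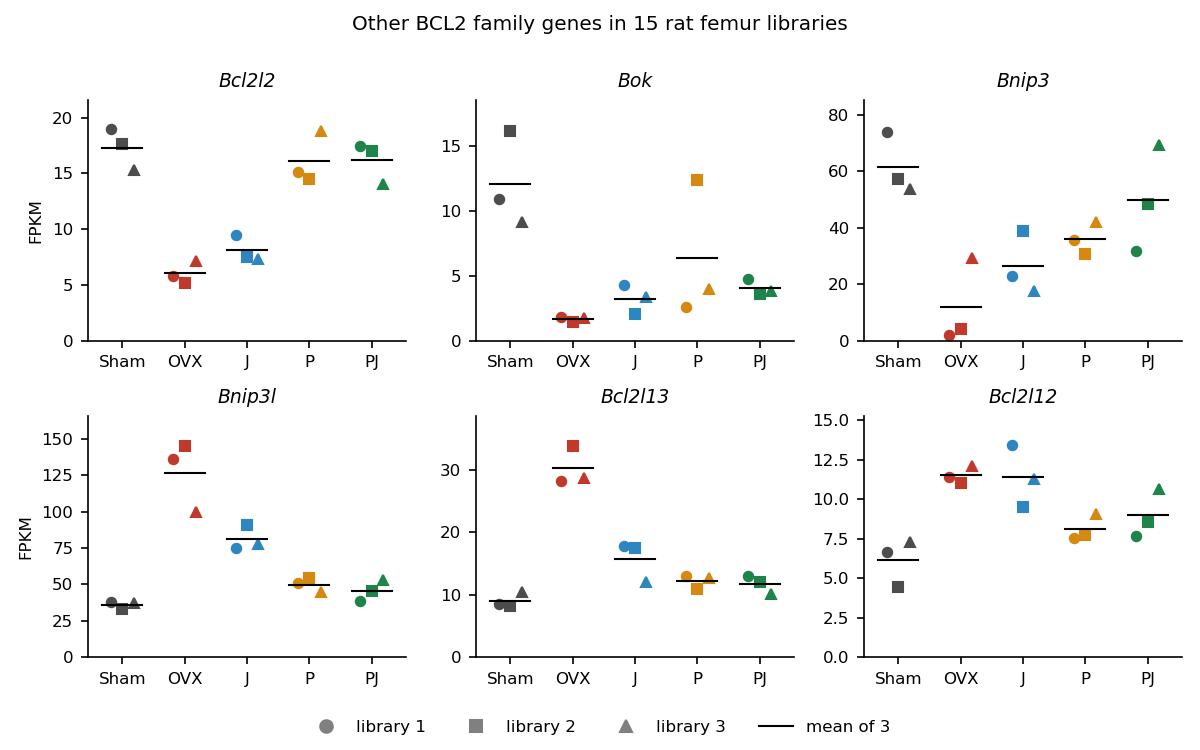
FPKM of the 6 other BCL2 family genes that passed the F test over the 5 groups, by library (line, mean of 3; each panel has its own axis from 0). Bnip3l and Bcl2l13 are highest in the 3 OVX libraries, Bcl2l2 and Bok are lowest there, and OVX 3 with 29.5 FPKM of Bnip3 stands apart from OVX 1 and OVX 2.

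Downstream of the mitochondria, 15 of 17 listed genes of the apoptosome, caspases and inhibitor of apoptosis (IAP) proteins were tested, and Casp2 and Diablo were under the filter. In OVX against Sham, 4 rose (Birc5, Apaf1, Aifm1 and Htra2) and 2 fell, Endog among them. Apaf1, Aifm1 and Endog are named after their values were seen. These 6 of 15 stand beside 54.2% of all genes, and the list median was 0.19. Birc5, or survivin, a gene of dividing cells, rose by 4.07 ± 0.23 (adjusted p = 1.16e-07), from 1.02 to 1.78 FPKM in Sham to 36.4 to 39.7 FPKM in OVX. It fell in P against OVX by 1.83 (SE 0.23) and in PJ against OVX by 1.92 (SE 0.23). Summed over 7 cell cycle markers, the level was 49.0 to 72.5 FPKM in Sham, 625 to 716 FPKM in OVX, 191 to 248 FPKM in P and 149 to 215 FPKM in PJ, and its part in Birc5 was not tested. Apaf1, which makes the scaffold of the apoptosome, rose by 0.80 ± 0.25 (adjusted p = 0.0164), but not without Sham 1, Sham 2 or OVX 2 (0.0509 to 0.0684). Htra2 lost its call when any 1 of the 6 libraries other than OVX 2 was left out (adjusted p = 0.0595 to 0.114), and Endog without Sham 2, Sham 3 or OVX 1 (0.0675 to 0.0772). With TPM, the rises of Apaf1 (adjusted p = 0.0667), Htra2 (0.0803) and Aifm1 (0.0834) did not pass. Dffa, the inhibitor of the apoptotic nuclease, rose in P (0.37 ± 0.13) and PJ (0.48 ± 0.13) against OVX, but in P not without OVX 1, OVX 2, OVX 3, P 1 or P 3 (0.0685 to 0.117). With median-ratio scaling it passed in neither, at 0.24 in P and 0.26 in PJ. Birc3, a further IAP gene, had 5.14 to 7.78 FPKM in Sham and 11.7 to 27.6 FPKM in J and was called higher there (1.42 ± 0.33, adjusted p = 0.00432).

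Of 10 genes of the death receptor pathway, which reaches mitochondria through Bid, 1 rose and 4 fell in OVX against Sham, 5 of 10 beside 54.2% of all genes, with a list median of -0.21. Fas rose by 0.64 ± 0.24 (adjusted p = 0.0369), from 4.69 to 5.78 FPKM in Sham to 7.24 to 10.9 FPKM in OVX, and lost this call when any 1 of the 6 libraries other than OVX 1 was left out (adjusted p = 0.0503 to 0.141). The ligand gene Tnfsf10, or TRAIL, fell by 2.43 (SE 0.37, adjusted p = 0.000116), from 14.3 to 27.0 FPKM to 1.86 to 4.40 FPKM, and its receptor gene Tnfrsf10b also fell (adjusted p = 2.87e-05), from 2.16 to 3.10 FPKM to 0.169 to 0.443 FPKM. Tnfrsf1a, a TNF receptor gene, fell by 0.75 (SE 0.21), and the kinase gene Ripk1, named after its values were seen, by 0.46 (SE 0.15), the latter not without Sham 3 (0.0775) or OVX 1 (0.0913). Tnfsf10 and Tnfrsf10b rose against OVX in P (1.88 ± 0.37 and 1.24 ± 0.19) and in PJ (2.03 ± 0.37 and 1.08 ± 0.19). In PJ against OVX 6 of the 10 genes rose and none fell, beside 29.8% of all genes higher. Of these, Tnfrsf1a (0.60) lost its call without OVX 1, OVX 2, OVX 3, PJ 1 or PJ 2 (adjusted p = 0.0542 to 0.134). With median-ratio scaling Tnfrsf1a was at 0.36 and did not pass (adjusted p = 0.131). In P 3 rose, Ripk1 with them, beside 24.2% of all genes, and Ripk1 lost this call when any 1 of the 6 libraries other than P 2 was left out (adjusted p = 0.0516 to 0.141). In J against OVX limma called 0 of them, beside 6.06% of all genes.

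Among 12 tested of 15 listed genes of the p53 pathway, which include none of the members here, 4 rose and 3 fell in OVX against Sham, 7 of 12 beside 54.2% of all genes, with a list median of 0.35. Pidd1, a p53-induced death domain gene, rose by 1.94 ± 0.26 (adjusted p = 5.09e-05), and Aen, a p53-induced nuclease gene, by 0.73 ± 0.15 (adjusted p = 0.00106). Zmat3 fell by 1.21 (SE 0.18) and Phlda3 by 1.86 (SE 0.56). Phlda3 had 3.62, 8.93 and 35.4 FPKM in OVX, and in Sham its highest library had 52.9 FPKM and its lowest fewer than OVX 3, so OVX 3 lay within the range of Sham, and without OVX 1 the fall was lost (-1.18, adjusted p = 0.0609). Also called, and named after their values were seen, were the p53 inhibitor gene Mdm4 (0.58 ± 0.17, not without OVX 2, adjusted p = 0.0556) and the cell cycle inhibitor gene Cdkn1a (-2.51 ± 0.55). With TPM, Mdm4 was at 0.49 in OVX against Sham and did not pass (adjusted p = 0.0739). In P and in PJ against OVX, Zmat3 and Phlda3 rose and Pidd1 and Aen fell. In P, Phlda3 (1.35, adjusted p = 0.0532) and Aen (-0.44, adjusted p = 0.075) did not pass without OVX 1, nor Aen without OVX 2 (0.0698). Of 11 partners of the family at the mitochondrial outer membrane, 3 rose and 2 fell in OVX against Sham, 5 of 11 beside 54.2% of all genes, with a list median of 0.04. Mtch2, a receptor for cut BID on that membrane, had 23.3 to 25.7 FPKM in Sham and 48.2 to 51.3 FPKM in OVX (1.01 ± 0.14, adjusted p = 5.62e-05), and fell against OVX in P and PJ by 0.47 each (SE 0.14). These falls were lost in P without P 2 (adjusted p = 0.0596) or OVX 3 (0.0518) and in PJ without PJ 1 (0.0504). With TPM the Mtch2 differences were -0.46 in P (0.0772) and -0.36 in PJ (0.142), and neither passed. In P the call was also lost with only the groups compared (0.0786). The channel gene Vdac3 rose by 0.60 ± 0.12 and Vdac2, named after its values were seen, by 0.38 ± 0.14 (lost when any 1 of the 6 libraries other than Sham 3 was left out, adjusted p = 0.0568 to 0.148), and Bag3, a chaperone partner, fell by 2.21 (SE 0.23). With TPM, the Vdac2 rise in OVX against Sham was 0.28 and did not pass (adjusted p = 0.17). Huwe1, which makes a ubiquitin ligase that marks MCL1 for degradation, fell by 0.49 (SE 0.14, adjusted p = 0.011), from 28.5 to 33.8 FPKM to 20.6 to 23.1 FPKM.

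The tested genes most like each member over the 15 libraries were found by Pearson's r of log2(FPKM + 1), as a description with no test, since all genes share these libraries and their group differences. Bcl2l1 was most like Adipor1 (r = 0.98), Bsdc1 (0.98) and Fbxo34 (0.98), and Bid like Ppil1 (0.97), Smg5 (0.97) and Ppp1r15b (0.97). Bcl2 was most like Zbtb10 (0.96), Hivep2 (0.95) and Calhm2 (0.94). Of the effectors, Bak1 was most like Tmem229b (0.97), Dock2 (0.95) and Ptpn6 (0.95), and Bax like Bola2 (0.95), Dohh (0.95) and Lamtor4 (0.93). The nearest genes were Ap5m1 for Mcl1 (0.91), Adamts3 for Bcl2l11 (0.93), Rnf185 for Bad (0.93) and Bin3 for Pmaip1 (0.89), the lowest of these best matches. Bbc3 was most like AC120246.2 (0.90), followed by Adck5 (0.87). Among the members themselves, r was highest for Pmaip1 with Bid (0.80) and Bak1 with Bid (0.78) and lowest for Bcl2 with Bcl2l1 (-0.84) and Bcl2 with Bid (-0.77).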

How the data were processed

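RNA from femurs was sequenced in 15 libraries after TRIzol extraction and a TruSeq RNA kit, per the labels' protocols. Reads were handled with fastp 0.23.4, STAR 2.7.11a and featureCounts 2.0.6 on build mRatBN7.2, per the submitters' processing notes. The annotation and strand setting are not given in the sources used here. The deposited values are FPKM: the column headed as a count holds FPKM by its values, and the FPKM column is empty in all 15 files. A fit with limma 3.58.1 (R 4.3.3) used log2(FPKM + 1) of all 15 libraries, with an intensity trend, for 14416 genes with a mean of at least 1 FPKM (10 residual degrees of freedom, two-sided). Benjamini-Hochberg adjustment was made within each comparison over all tested genes, at a threshold of 0.05, and 95% intervals are unadjusted.

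The FPKM steps gave whole reads for 24206 of 24207 genes above 0 (100.0% of values within 0.05 reads, below 10000 reads, after choosing each gene's length so). Of counts of 1 to 20, 60.3% were even, which may mean that mates were counted separately. Totals of about 34400000 to 61000000 reads put the floor of 3 reads at 0.0492 to 0.0873 CPM, which covers counting error only. These reads entered voom. On data simulated for OVX against Sham with 14416 genes, 66% of 100 genes changed by 1 on the log2 scale and 89% of 100 changed by 2 were recovered, with 3 unchanged genes called. No other genes were changed there, while 54.2% of all tested genes were called in the data. The cutoff set by the adjustment therefore differs, and these rates do not give the recovery in the data.

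The members and lists were chosen with earlier results of these data known. Named beyond the 10 members are up to 4 genes of each pathway list with the smallest p over the 5 groups, every called other family gene, the most abundant gene of a marker list, and the 3 nearest genes by r. Alternatives were other pseudocounts and filters, TPM and median-ratio scaling, array weights, only the groups compared, a replicate block, and leaving out genes or libraries. Voom and leaving out Sham 3, P 2 and PJ 3 together were added after seeing the data. Values of some called genes of the pathway lists are not reported here.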

Additional observations from a re-analysis of the deposited data

How the results depend on the processing

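Of 100 pairs of member and comparison, 23 were called, and 12 of these stayed called under all 18 alternatives; none of the 23 changed direction. Of the 77 not called, 27 were called under some alternative. The numbers of members called that moved by over 1.5 times were as follows. With array weights they were 3 in J against OVX, 6 in PJ against OVX, 3 in P against Sham, 3 in PJ against Sham, 5 in P against J, 6 in PJ against J and 9 over the 5 groups. Without Sham 3, P 2 and PJ 3 together they were 3 in P against Sham, 2 in PJ against Sham, 3 in PJ against J and 8 over the 5 groups. Median-ratio scaling gave 5 in PJ against OVX, 0 in PJ against Sham and 2 in PJ against J, and leaving out mitochondrial and globin genes gave 5 in PJ against OVX and 2 in PJ against J. With no filter, and with only the groups compared, there were 0 in PJ against Sham and 0 in P against J; with TPM there were 0 and 1. In P against J, pseudocounts of 0.1 and 0.01, a mean of at least 5 FPKM and voom gave 1 each. The cause of these shifts was not tested.

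Leaving out each replicate in turn gave 5 to 6 members in OVX against Sham, 0 to 1 in J against OVX, 2 to 4 in P against OVX, 3 to 4 in PJ against OVX, 3 to 5 in J against Sham, 0 to 3 in P against Sham, 0 to 1 in PJ against Sham, 0 to 1 in P against J, 1 to 3 in PJ against J, 0 to 0 in PJ against P and 4 to 7 over the 5 groups. Deviations from the group means were correlated between same-numbered libraries, and 9 of 30 pairs had r over 0.1, from -0.409 to 0.488. Libraries with different numbers were not correlated, so this cannot settle whether the replicate numbers pair the libraries. With the replicate block, 6 members were called in OVX against Sham and 5 in P against OVX. The block added Bid in P against OVX (adjusted p = 0.0295) and in P against J (0.046) and lost Bax in J against Sham (0.0562) and Pmaip1 in P against J (0.0569), among members.

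Over all tested genes, 873 were called in J against OVX, 540 with no filter, 476 with TPM, 1357 with only those groups, 3934 with array weights, 2881 without the 3 libraries, and 22, 88, 242 and 94 without OVX 1, OVX 2, J 1 or J 3. In P against Sham, 1125 were called, 503 with only those groups, 6090 with array weights, 4528 without the 3 libraries, 2529 without P 2, and 478, 502, 529 and 606 without Sham 1, Sham 2, P 1 or P 3. In PJ against Sham, 1615 became 504, 6959 and 3305 under the same 3 settings, and 361, 426 and 394 without Sham 1, Sham 2 or PJ 3 (361 to 2222 when 1 library was left out). In P against J, 1069 became 515 and 407 with the smaller pseudocounts, 0 with no filter or only those groups, 329 with TPM, 4197 with array weights, 3154 without the 3 libraries and 0 to 858 when 1 was left out, with 0 without J 1, J 3, P 1 or P 3 and 328 without J 2. In PJ against J, 2056 became 615 with only those groups, 7405 with array weights, 5378 without the 3 libraries and 397 to 3819 when 1 was left out, with 843, 925, 613, 397 and 3819 without J 1, J 3, PJ 1, PJ 2 or PJ 3. Array weights gave 4 in PJ against P and 11811 over the 5 groups, in place of 0 and 7213. Median-ratio scaling moved the median of all genes by -0.21 in PJ against OVX and by -0.13 in P against OVX, and the split of higher to lower calls from 4298 and 2103 to 3161 and 3307 and from 3486 and 2160 to 2943 and 3105. Without mitochondrial and globin genes the split was 572 and 685 in P against J and 773 and 1253 in PJ against J.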
